A study of Mus musculus with 4 samples.

Results

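The genes described here are 44 genes of mitosis: M phase cyclins, mitotic kinases, spindle motors, kinetochore and spindle checkpoint proteins, and the proteins that condense and divide chromosomes. They were named in a list, and each was taken from every non-control probe that carried its gene symbol on the array, 83 probes in all. All 44 were found among the 28095 gene names on the array, and 43 were bright enough to be tested. The cells were LSK cells, the lineage-negative, Sca-1+ c-Kit+ bone marrow cells that hold hematopoietic stem cells and early progenitors. Each of 2 slides held 1 array of each genotype. On slide 1, 42 of these 43 genes (97.7%, against 53.3% of all tested probes) were higher with Meis1 deficiency than in the control. On slide 2, 26 were higher (60.5%, against 56% of all tested probes) and 17 lower. No gene of the list met the criteria for differential expression, which 0.736% of all tested probes met.

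A dividing cell enters mitosis when B-type cyclins and Cdk1 are switched on by Cdc25 phosphatases. Polo and Aurora kinases then build the spindle, condensin and topoisomerase II compact and untangle the chromosomes, and kinesin motors move them on microtubules. The spindle checkpoint holds anaphase back until every kinetochore is attached, after which the anaphase-promoting complex destroys securin and cyclin B. Most long-term stem cells in adult marrow are quiescent and transcribe these genes little, whereas the progenitors in the same LSK gate divide more often.

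Each array held RNA of 1 pool of 6 mice, with 2 pools per genotype. Meis1-KO mice were *Mx1-Cre* positive *Meis1fl/fl* mice, and Meis1-WT mice were *Meis1fl/fl* mice without the Cre transgene, so all animals carried the floxed allele of the homeobox gene *Meis1* on a C57BL/6J background. The *Mx1* promoter answers to interferon and is not limited to hematopoietic cells. Deletion was induced at 4 to 8 weeks of age by 4 injections of 1.5 µg/g poly(I:C), and LSK cells were collected 1 week later. The sample labels give poly(I:C) for both genotypes, while the microarray methods and the design text call the control mice sham-treated, so poly(I:C) and genotype cannot be told apart if the latter holds. Amplification of 10 ng of RNA per pool gave the Cy3-labeled cDNA for a 1-color array.

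Many genes of mitosis carry CCAAT boxes, bound by NF-Y, and a CHR element, to which the DREAM and MuvB-containing complexes bind, just before the start of transcription. Promoters were in the RefSeq table (GRCm38.p6) for 36 of the 44 genes, 39 promoters in all. In the 250 bases before the start, CCAAT on either strand was present in 29 of 39 promoters (74.4%), against 33.8% of 32851 promoters in the table. At least 2 copies of CCAAT were found in 46.2% and 10.1%. TTTGAA, the letters most often given for a CHR, was found on either strand in 41% of the promoters of these genes and 16% of all promoters. For TTTAAA these shares were 17.9% and 12.1%. At least 2 copies of CCAAT together with TTTGAA or TTTAAA occurred in 13 of 39 promoters (33.3%), against 2.36% of all promoters. A match is a description of the letters and not evidence of binding.

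The 6 promoters with 4 or more matches are shown as examples, each as the 200 bases before the start of transcription, written 5′ to 3′ on the strand of the gene. Capitals mark CCAAT (or ATTGG, its reverse complement) and TTTGAA (or TTCAAA). *Top2a* held 6 CCAAT and 2 TTTGAA and *Ube2c* 6 and 1, where the palindromic CCAATTGG counts as a match on each strand. *Ccnb2*, *Ect2* (1 of its 2 promoters in the table) and *Ncapd2* each held 3 and 1, and *Kif22* 2 and 2. These counts are over 250 bases, so 1 CCAAT of *Top2a*, 1 of *Ube2c*, and 1 CCAAT and 1 TTTGAA of *Kif22* lie before the bases shown.
Top2a (chr11:99024190-99024389, minus strand): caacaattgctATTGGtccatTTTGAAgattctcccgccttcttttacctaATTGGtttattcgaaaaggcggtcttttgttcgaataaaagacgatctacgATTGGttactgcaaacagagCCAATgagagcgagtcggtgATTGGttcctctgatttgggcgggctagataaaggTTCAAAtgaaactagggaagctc
Ube2c (chr2:164769729-164769928, plus strand): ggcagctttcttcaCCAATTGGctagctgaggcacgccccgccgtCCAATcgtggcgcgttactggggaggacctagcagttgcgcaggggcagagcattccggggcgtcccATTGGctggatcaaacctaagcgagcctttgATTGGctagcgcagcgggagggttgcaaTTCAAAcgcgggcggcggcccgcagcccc
Ccnb2 (chr9:70421555-70421754, minus strand): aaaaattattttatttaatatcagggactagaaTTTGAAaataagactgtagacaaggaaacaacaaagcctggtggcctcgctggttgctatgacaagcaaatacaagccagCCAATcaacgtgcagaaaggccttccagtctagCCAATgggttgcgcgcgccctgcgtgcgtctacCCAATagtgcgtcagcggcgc
Ect2 (chr3:27153855-27154054, minus strand): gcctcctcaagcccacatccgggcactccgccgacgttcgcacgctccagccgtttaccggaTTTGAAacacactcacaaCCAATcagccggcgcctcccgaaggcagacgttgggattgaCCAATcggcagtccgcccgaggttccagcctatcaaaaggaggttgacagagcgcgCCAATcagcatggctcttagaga
Kif22 (chr7:127042421-127042620, minus strand): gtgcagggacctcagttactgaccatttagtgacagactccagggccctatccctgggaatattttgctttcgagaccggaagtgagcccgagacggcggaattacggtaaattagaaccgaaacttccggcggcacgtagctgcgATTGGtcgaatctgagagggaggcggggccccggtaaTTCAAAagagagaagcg
Ncapd2 (chr6:125191587-125191786, minus strand): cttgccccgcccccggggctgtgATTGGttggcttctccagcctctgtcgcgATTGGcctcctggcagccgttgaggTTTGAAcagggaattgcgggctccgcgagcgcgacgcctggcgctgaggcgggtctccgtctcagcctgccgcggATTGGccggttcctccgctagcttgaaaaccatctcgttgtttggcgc
A link between the motifs of these 6 promoters and the values measured below was not tested. On slide 1, the brightest probes of all 6 genes were higher in Meis1-KO cells, by 0.23 (*Ccnb2*) to 0.50 (*Top2a*) on the log2 scale. On slide 2, those of *Ect2* and *Kif22* were higher and that of *Top2a* lower. The differences of *Ube2c*, *Ccnb2* and *Ncapd2* on slide 2 were all under 0.5. The other tested probe of *Ect2* had a difference of -0.11 on slide 2.

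Between 49.2% and 57.4% of spots per array were well above background. The lowest share was on the second Meis1-KO array, which also had the lowest 75th percentile of signal, 90.3 against 147 to 154 on the other arrays, and the lowest correlation with the others (r = 0.891 to 0.916 across probes, where the highest among the other arrays was 0.967). A *Meis1* probe (A_52_P670612) had log2 values of 0.25 and 0.22 in Meis1-KO and 1.02 and 1.45 in Meis1-WT cells, lower in Meis1-KO on both slides; its position relative to the deleted exon was not analysed here. Of 12 LSK and stem cell markers, 11 were well above background on all 4 arrays, *Kit* and *Ly6a* (Sca-1) among them. The other was *Flt3*, a receptor of lymphoid-primed progenitors, with log2 values of -2.32 and -4.72 in Meis1-KO (well above background on the first array only) and -0.19 on both Meis1-WT arrays. It met the criteria described below by limma both without a block, at an adjusted p of 0.983, and with the slide blocked, at an adjusted p of 0.0951. Markers of other blood cells were also present. The summed signal of 11 erythroid markers, relative to the 75th percentile, was 104 and 249 in Meis1-KO and 94.7 and 33.0 in Meis1-WT cells, most of it from *Hbb-b1*. That of 14 granulocyte and monocyte markers was 186 and 148 against 203 and 79.1, and that of 7 megakaryocyte markers 10.2 and 13.0 against 10.7 and 36.7. For B lineage (12 markers) the sums were 12.2 and 8.97 against 19.4 and 7.91, with *Igll1*, *Pax5*, *Rag2* and *Cd22* not well above background on any array. For plasma cells (6 markers) they were 5.0 and 25.8 against 27.2 and 13.4, and for T and NK cells (9 markers) 0.80 and 1.06 against 1.83 and 1.65, with *Cd3e*, *Cd3g* and *Ncr1* not well above background on any array. The part of these cells, or of a change in *Flt3*-expressing progenitors, in the results below was not tested.

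The first question was whether mitotic genes differ between Meis1-KO and Meis1-WT LSK cells over all 4 arrays. Values are log2 of the processed signal minus the 75th percentile of the array, each gene is given by its brightest probe, and arrays are named in the order replicate 1, replicate 2. The slide has the number of the replicate, so that each slide held 1 array of either genotype. Of the 43 genes tested, 29 were higher and 14 lower in Meis1-KO cells, with a median log2 fold change of 0.27 against 0.08 over all 22008 tested probes. After normexp background correction these medians were 0.087 and 0.13, so that the mitotic genes lay below all probes, and after quantile normalization they were 0.12 and 0.036. None of the 43 met the criteria of the study (over 2-fold with an unadjusted p under 0.01) by limma, where 0.736% of all tested probes did, and none did with the slide as a block, where 1.99% did. An unadjusted p under 0.05 was reached by 0 of 43 genes, against 2.81% of probes in either direction. With the slide as a block it was reached by *Kif2c* only, against 6.07% of probes in either direction. *Kif2c* was not well above background on the first Meis1-WT array, so this rests in part on a dim spot. Adjusted p-values by limma were 0.983 to 0.996 for all 43 genes. Both Meis1-KO arrays lay above both Meis1-WT arrays in 13 genes (30.2% of 43, against 16% of all tested probes), and both lay below in 0 (10.9% of all tested probes). With 2 arrays per genotype an exact two-sided permutation test cannot give a p below 0.333. Without the first Meis1-KO array 7 genes met the criteria (*Ccnb1* and *Cenpa* higher, *Cenpe*, *Cenpf*, *Kif15*, *Kif20b* and *Smc4* lower, with *Cenpe* not well above background on the remaining Meis1-KO array), as did 2215 of all tested probes, and without the first Meis1-WT array the median log2 fold change was 0.053. The signs of *Kif11*, *Top2a*, *Cdc25c*, *Cdca8* and *Prc1* turned with another scaling or background correction. In RNA of a sorted population, a change in the share of dividing cells and a change in RNA per cell cannot be told apart.

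**Figure D1:**
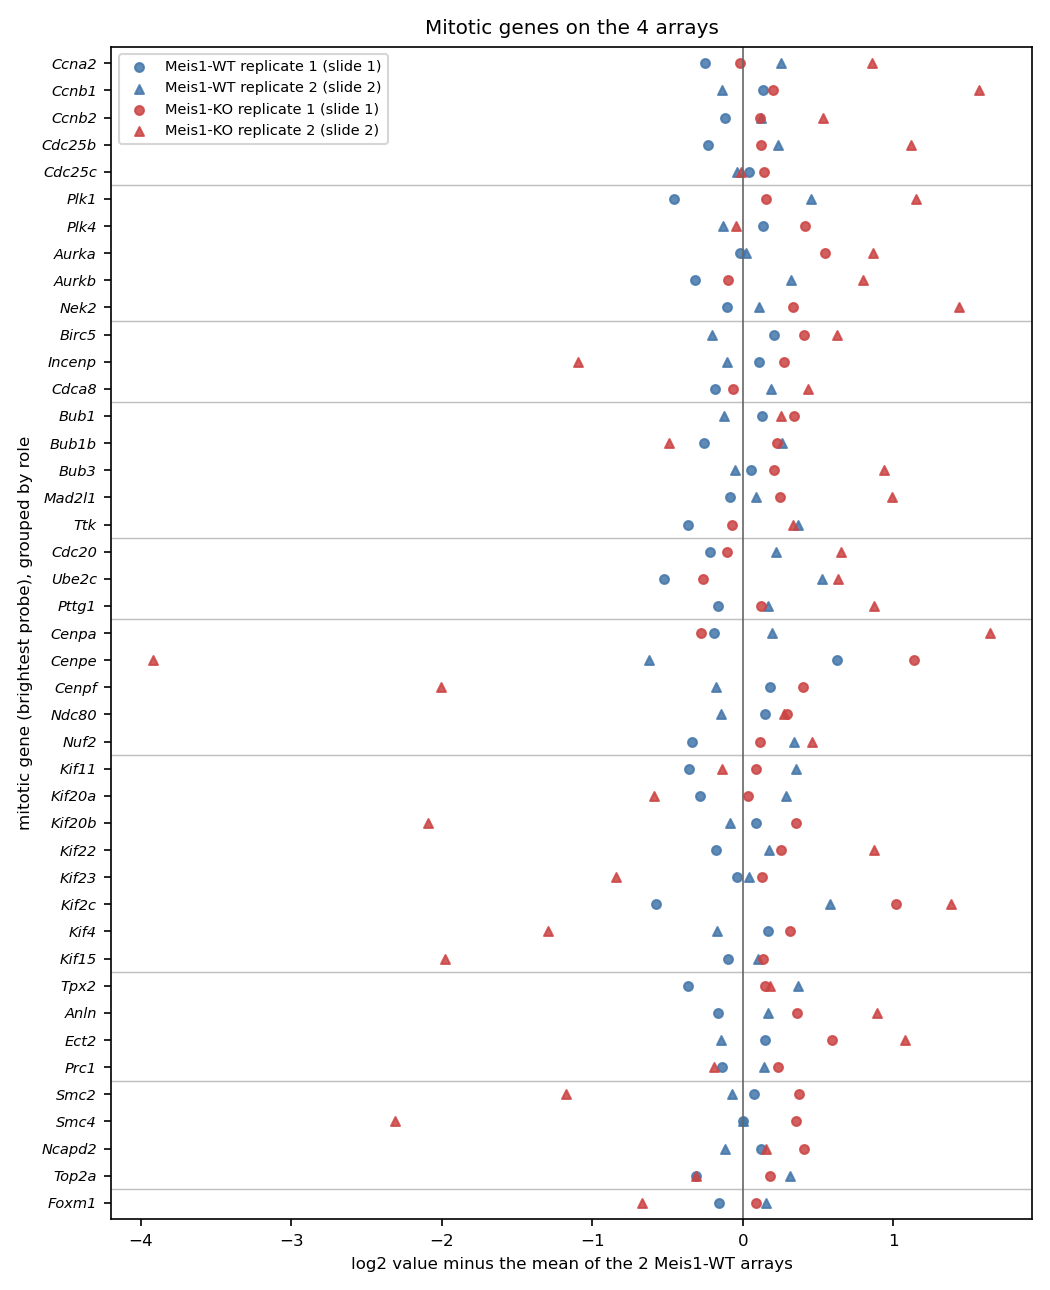
Log2 value of each of the 43 tested mitotic genes on the 4 arrays, minus the mean of the 2 Meis1-WT arrays (x axis), with genes grouped by role (y axis). Blue marks Meis1-WT and red Meis1-KO; circles are replicate 1 (slide 1) and triangles replicate 2 (slide 2). The points far from 0 on both sides are mostly the second Meis1-KO array, down to *Cenpe* on the left and up to *Cenpa* and *Ccnb1* on the right.

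The cyclins of M phase and the phosphatases that activate their kinase were higher in Meis1-KO cells on both slides in 5 of 5 genes, with a median log2 fold change of 0.42. *Ccnb1*, cyclin B1 (A_52_P558401, chr13:101549368-101549427, mm9), had log2 values of 2.97 and 4.34 in Meis1-KO and 2.91 and 2.63 in Meis1-WT cells. Its arrays did not overlap between genotypes, but the first Meis1-KO array was only 0.065 above its control on the same slide. Its log2 fold change was 0.89 (SE, the standard error of the limma fit, 0.58), with an adjusted p of 0.983 from limma. *Cdc25c* differed least, with 2.85 and 2.70 against 2.75 and 2.67 and a log2 fold change of 0.063 (95% confidence interval -0.96 to 1.08). *Ccna2* (cyclin A2), *Ccnb2* (cyclin B2) and *Cdc25b* had log2 fold changes of 0.42, 0.32 and 0.62. Each had overlapping genotypes, since the second Meis1-WT array lay above the first Meis1-KO array.

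The Polo, Aurora and NIMA kinases were higher on both slides in 5 of 5 genes as well, with a median log2 fold change of 0.65. *Plk1*, the Polo kinase that drives mitotic entry and spindle assembly, had 0.60 and 1.60 in Meis1-KO and -0.0092 and 0.90 in Meis1-WT cells, so the 2 slides differed by more than the genotypes within a slide. The genotypes were 0.61 apart on slide 1 and 0.70 apart on slide 2 (log2 fold change 0.65, SE 0.57). *Nek2*, a centrosome kinase (A_51_P501018, chr1:193656343-193656402), had 0.38 and 1.48 against -0.063 and 0.15. Its genotypes did not overlap, and its log2 fold change was 0.88 (SE 0.53), again with an adjusted p of 0.983 from limma. *Aurka*, the kinase of the spindle poles, had the tightest Meis1-WT arrays of the 5, 3.89 and 3.93, against 4.45 and 4.77 in Meis1-KO cells (log2 fold change 0.70, SE 0.43). *Aurkb*, the kinase of the chromosomal passenger complex, had 1.44 and 2.34 against 1.22 and 1.85. The smallest difference was that of *Plk4*, which drives centriole duplication, with 1.80 and 1.35 against 1.52 and 1.26 and a log2 fold change of 0.19 (SE 0.44).

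The subunits that hold Aurora B at the centromere were of 1 sign on slide 1 and not on slide 2. *Birc5* (survivin) had 8.44 and 8.66 in Meis1-KO and 8.24 and 7.83 in Meis1-WT cells, with no overlap and a log2 fold change of 0.51 (SE 0.44). *Cdca8* (borealin) had 4.86 and 5.36 against 4.74 and 5.12, where the slides were further apart than the genotypes. *Incenp*, the scaffold, was 0.16 higher on slide 1 and 0.99 lower on slide 2.

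Of the 5 checkpoint genes, all were higher on slide 1 and 3 on slide 2. *Mad2l1* (Mad2), which binds and blocks Cdc20, had 3.07 and 3.82 in Meis1-KO and 2.74 and 2.91 in Meis1-WT cells, with no overlap and a log2 fold change of 0.62 (SE 0.47). *Bub1* and *Bub3* also had both Meis1-KO arrays above both Meis1-WT arrays, with log2 fold changes of 0.30 and 0.57. *Bub1b* (BubR1) was 0.49 higher on slide 1 and 0.75 lower on slide 2. *Ttk* (Mps1), the kinase that starts checkpoint signaling, had -0.015 and 0.39 against -0.31 and 0.42, and its difference of 0.29 on slide 1 was -0.034 on slide 2.

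Among the genes grouped with the anaphase-promoting complex, 3 of 3 tested genes were higher on both slides. *Cdc20*, its activator, had 2.16 and 2.92 in Meis1-KO and 2.05 and 2.49 in Meis1-WT cells (log2 fold change 0.27, SE 0.49). *Pttg1* (securin) had 3.55 and 4.29 against 3.26 and 3.59 (log2 fold change 0.50, SE 0.48), and *Ube2c*, the ubiquitin-conjugating enzyme, 0.64 and 1.53 against 0.38 and 1.43 (log2 fold change 0.18, SE 0.57). In these 3 genes the genotypes overlapped, because replicate 2 was higher than replicate 1 in both. *Espl1* (separase) was not well above background on any array at either of its 2 probes and was not tested.

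The centromere and kinetochore genes held the lowest difference of slide 2 and one of the highest. *Cenpe*, the kinetochore motor (A_51_P164014, chr3:134936387-134936446), had 1.68 and -3.37 in Meis1-KO and 1.17 and -0.08 in Meis1-WT cells. The second Meis1-KO array was not well above background at this probe, and the fitted log2 fold change of -1.39, which takes that spot at its listed value, carried an SE of 1.54 (limma adjusted p = 0.983). *Cenpf*, a large kinetochore protein, went the same way, with 2.17 and -0.23 against 1.95 and 1.59. *Cenpa*, the histone variant of the centromere, went the opposite way, with 1.94 and 3.86 against 2.03 and 2.41. It was the only one of the 43 genes that was lower in Meis1-KO cells on slide 1, by -0.088. *Ndc80*, the microtubule-binding subunit of the outer kinetochore, had 1.34 and 1.32 against 1.19 and 0.90, with no overlap, and *Nuf2*, its partner, had a log2 fold change of 0.29 with overlap.

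The kinesins were higher on slide 1 in 8 of 8 genes and lower on slide 2 in 6 of 8. *Kif2c* (MCAK), which depolymerizes microtubules (A_51_P135092, chr4:116832775-116832834), had -3.05 and -2.68 in Meis1-KO and -4.64 and -3.49 in Meis1-WT cells, and was well above background on both Meis1-KO arrays and on 1 of 2 Meis1-WT arrays. Its genotypes did not overlap, and its fitted log2 fold change of 1.20 (SE 0.54), which takes a dim Meis1-WT spot at its listed value, had an adjusted p of 0.983 by limma and 0.747 with the slide as a block. *Kif11* (Eg5), which pushes spindle poles apart, had 1.15 and 0.92 against 0.70 and 1.41, so its log2 fold change of -0.024 (SE 0.47) averages 0.44 on slide 1 and -0.49 on slide 2. *Kif22* (Kid) was higher on both slides, by 0.43 and 0.69. *Kif15*, *Kif20b* and *Kif4* were 0.23, 0.26 and 0.14 higher on slide 1 and 2.08, 2.01 and 1.13 lower on slide 2. *Kif20a* and *Kif23*, kinesins of cytokinesis, were both 0.88 lower on slide 2.

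Of the genes of spindle assembly and cytokinesis, *Ect2*, the exchange factor that activates RhoA at the cleavage furrow, had 3.25 and 3.73 in Meis1-KO and 2.80 and 2.51 in Meis1-WT cells. There was no overlap, and Meis1-KO cells were 0.84 higher on average (SE 0.45, limma adjusted p = 0.983). *Anln* (anillin), a scaffold of the same furrow, was higher on both slides, by 0.52 and 0.72. *Prc1*, which bundles the midzone microtubules, had 2.05 and 1.62 against 1.68 and 1.96 and a log2 fold change of 0.021 (95% confidence interval -1.05 to 1.10). *Tpx2*, the activator of Aurora A, was 0.51 higher on slide 1 and 0.18 lower on slide 2.

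Condensin and topoisomerase genes were higher on slide 1 in 4 of 4 and lower on slide 2 in 3 of 4. *Smc4*, a core subunit of condensin (A_51_P143212, chr3:68832408-68832466), had 4.26 and 1.60 in Meis1-KO and 3.91 on both Meis1-WT arrays. The log2 fold change of -0.98 (SE 0.87) therefore rests on 1 array. Its partner *Smc2* had 3.73 and 2.18 against 3.44 and 3.29. *Ncapd2*, a regulatory subunit of condensin, was higher on both slides, by 0.29 and 0.27. *Top2a*, topoisomerase II alpha, had 3.88 and 3.38 against 3.38 and 4.01, which cancel to a log2 fold change of -0.067 (95% confidence interval -1.22 to 1.09). *Foxm1*, the transcription factor that acts on many of these genes, had -0.38 and -1.14 against -0.62 and -0.31, higher on slide 1 by 0.24 and lower on slide 2 by 0.83.

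The 2 slides were then compared, because each held 1 array of each genotype. On slide 1 the differences of the 43 genes were small and nearly all of 1 sign, with 42 higher (97.7%, against 53.3% of all tested probes) and a median of 0.29 against 0.025 over all tested probes. Their range was -0.088 to 0.61 without *Kif2c*, whose listed difference of 1.59 is taken against a control spot that was not well above background. On slide 2 the range was -3.29 to 1.70, with a median of 0.24 against 0.13 over all tested probes, and 26 genes were higher (60.5%, against 56%). With normexp background correction 37 genes were higher on slide 1 and 21 on slide 2, and with quantile normalization 42 and 21, where the medians on slide 2 were -0.0037 and -0.084. Higher on both slides were 25 genes (58.1%, against 30.3% of all tested probes), and lower on both were 0 (against 21%). Higher on slide 1 and lower on slide 2 were 17 (39.5%, against 23.1%). Across the 43 genes, which share the same 4 arrays, the differences on the 2 slides correlated at r = 0.028 and rho = -0.014, and over all tested probes at r = 0.133 and rho = 0.053.

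**Figure D2:**
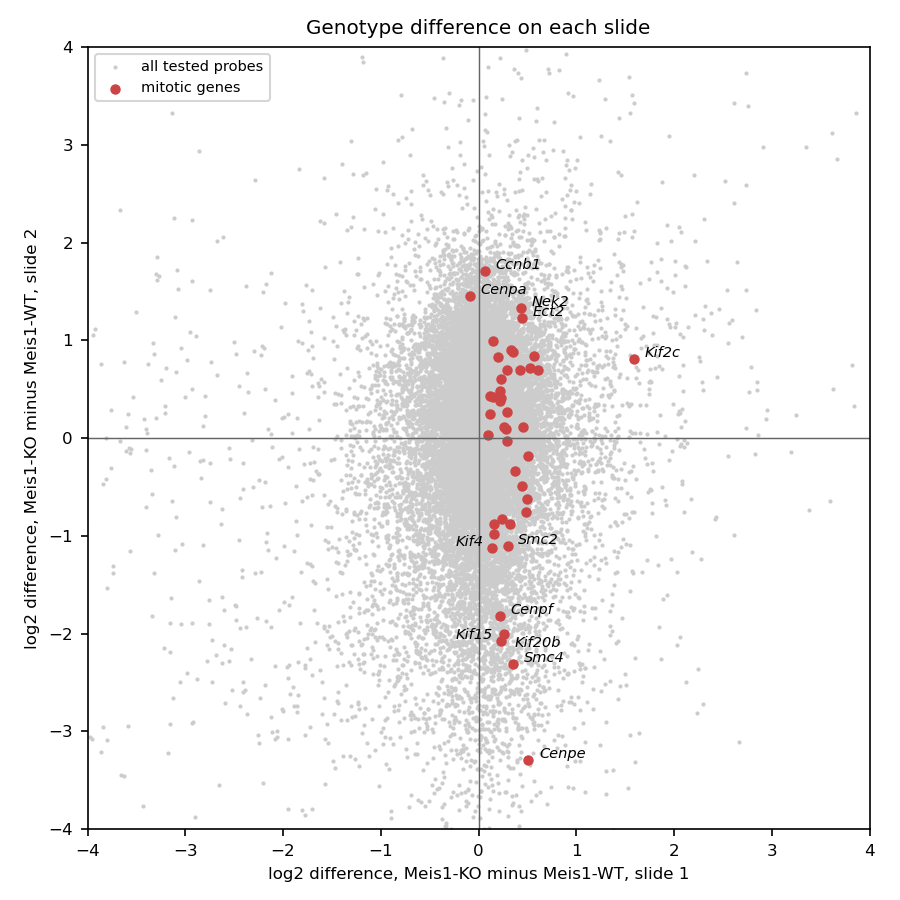
Log2 difference, Meis1-KO minus Meis1-WT, on slide 1 (x axis) and on slide 2 (y axis). Red points are the 43 mitotic genes and grey points all tested probes, of which 149 lie outside the range of 4 shown. All but *Cenpa* of the red points lie right of 0. Apart from *Kif2c*, drawn at 1.59 against a control spot not well above background, they form a narrow band on the x axis. On the y axis the red points spread from *Cenpe* at -3.29 to *Ccnb1* at 1.70.

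On slide 2, more than 2-fold higher in Meis1-KO cells were 4 genes (9.3%, against 13.8% of all tested probes), *Ccnb1*, *Cenpa*, *Nek2* and *Ect2*. More than 2-fold lower were 7 (16.3%, against 16.2%), *Cenpe*, *Smc4*, *Kif15*, *Kif20b*, *Cenpf*, *Kif4* and *Smc2*. These 11 were listed after their values were seen. Their shares were thus near those of the array as a whole or below, and the spread on slide 2 was a feature of all probes. The median absolute difference on slide 2 was 0.75 in the mitotic genes and 0.64 over all tested probes, against 0.29 and 0.21 on slide 1.

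The second Meis1-KO array differed from the first by a median absolute value of 0.73 in these genes and 0.71 over all tested probes. Without that array, 36 of 43 genes were higher in the remaining Meis1-KO array than in the mean of the controls, with a median of 0.21. Between the controls, which were on different slides, the second Meis1-WT array exceeded the first in 28 of 43 genes, by a median of 0.24, with a median absolute difference of 0.34 (0.37 over all tested probes). The pair of genotypes on slide 1 had 0.29 (0.21 over all tested probes), and, unlike the pair of controls, holds no difference between slides. Against the second Meis1-WT array, the first Meis1-KO array was higher in 25 of 43 genes, with a median of 0.094 (-0.00095 over all tested probes). That comparison also holds the difference between slides. With 1 array per genotype on each slide, the difference between the slides could not be tested.

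Genes with several probes gave a second reading. More than 1 probe was tested for 22 genes, and the probes of 4 (*Bub1*, *Cdc25b*, *Cdca8* and *Ncapd2*) had log2 fold changes of opposite sign. On slide 1, 67 of the 72 tested probes were higher in Meis1-KO cells. The large negative values of slide 2 were found at every tested probe of the gene for *Cenpe* (-3.29, -2.31 and -2.77), *Kif20b* (-2.01, -2.57 and -3.29), *Smc2* (-1.10, -1.21, -1.55 and -2.12), *Smc4* (-2.31 and -2.34) and *Kif15* (-2.08 and -2.11). At all 3 probes of *Cenpe* and at the last 2 of *Kif20b*, the second Meis1-KO array was not well above background, so the sizes there are not exact. *Kif4* was lower by 1.13 and 0.50 at its 2 probes, and *Cenpf* had 1 tested probe. Among the genes with large positive values, probes also differed. *Ccnb1* was 1.70 higher at its brightest probe and 0.41 and 0.23 higher at the others, and *Cenpa* was 1.45 higher at the brightest and 0.41 lower at the other. *Ect2* was 1.22 higher and 0.11 lower, whereas *Bub3* was 0.99 and 1.60 higher. For *Top2a* both tested probes were higher on slide 1, by 0.50 and 0.47, and lower on slide 2, by 0.63 and 1.28.

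The brightest probes of *Top2a* and *Kif20b* are shown because their 60 bases map to longer stretches of the genome. These stretches are 815 and 5101 bases of mm9, so each probe is split on the genome. Exon boundaries were not annotated here.
Top2a probe A_51_P252157 (chr11:98857244-98858058, minus strand): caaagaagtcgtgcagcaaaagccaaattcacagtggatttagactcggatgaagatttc
Kif20b probe A_51_P205242 (chr19:35017012-35022112, plus strand): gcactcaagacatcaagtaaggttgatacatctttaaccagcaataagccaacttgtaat

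The split on slide 2 went with the length of the genes. Lengths are genomic spans from the first to the last base of the gene in a RefSeq table (GRCm38.p6), introns included, and were examined after the values were seen. Across the 43 genes, Spearman's rho between span and the difference was -0.59 on slide 2 and 0.29 on slide 1, and it was -0.26 for the second against the first Meis1-WT array. Of the 14 genes with the shortest span (2.97 to 12.1 kb), among them *Ccnb1*, *Cenpa*, *Plk1* and *Nek2*, 13 were higher on slide 2, with a median of 0.77. Of the 14 genes of 12.9 to 30.8 kb, 9 were higher, with a median of 0.17. Of the 15 longest (31.3 to 101 kb), among them *Cenpe*, *Cenpf*, *Kif15*, *Kif20b* and *Top2a*, 4 were higher (*Anln*, *Bub1*, *Ect2* and *Nuf2*), with a median of -0.63. On slide 1 the same groups had 13 of 14, 14 of 14 and 15 of 15 genes higher, with medians of 0.24, 0.26 and 0.44.

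**Figure D3:**
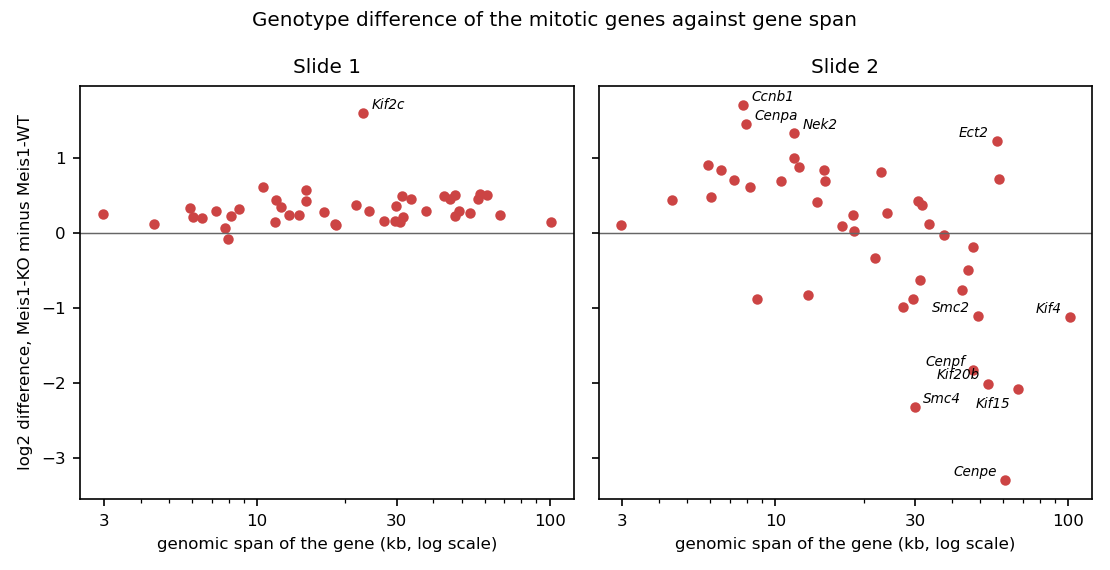
Log2 difference, Meis1-KO minus Meis1-WT, of the 43 mitotic genes against genomic span in kb (log scale), on slide 1 (left) and slide 2 (right). On slide 1 the points lie between -0.088 and 0.61 except *Kif2c*, drawn at 1.59 against a control spot not well above background, with medians of 0.24, 0.26 and 0.44 from the shortest to the longest group. On slide 2 they fall from a median of 0.77 in the shortest genes to -0.63 in the longest, with *Ect2* and *Anln* among the exceptions.

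The same order was present across the array. Over 10318 tested genes with a span, rho was -0.27 on slide 2, 0.052 on slide 1 and -0.11 for the second against the first Meis1-WT array. These genes were split by span into those up to 12.1 kb, those above that and up to 30.8 kb, and all longer ones. The outer groups thus reach beyond the spans of the mitotic genes. Their medians on slide 2, in this order, were 0.48, 0.26 and -0.011, and 73.8%, 62.5% and 49.4% of genes were higher. The genes share the same pair of arrays, of which the Meis1-KO one was the dimmest of the 4. For the GC content of the probes of the mitotic genes, rho was 0.25 on slide 1 and 0.056 on slide 2. Between the outermost tested probes of a gene, at least 200 bases apart, the downstream probe had the higher difference on slide 2 in 14 of 20 mitotic genes (70%) and in 52.1% of 4611 genes. On slide 1 these shares were 65% and 47.4%, and for the second against the first Meis1-WT array 75% and 47.1%, so the tilt of the mitotic genes was also present between the controls. The part of the dimmer signal of that array in this order was not tested.

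Other genes of mitosis gave a similar picture with weaker uniformity on slide 1. From a further 105 symbols, 99 were on the array and 97 were tested, and 0 met the criteria with or without the slide as a block. Their median log2 fold change was 0.23, with 66 higher and 31 lower, and it was 0.15 without the second Meis1-KO array and 0.38 without the second Meis1-WT array. On slide 1, 79 of 97 were higher (median 0.23), on slide 2 64 of 97 (median 0.24), and 50 were higher on both. *Cdk1*, the kinase partner of the B cyclins, had 1.43 on both Meis1-KO arrays against 1.16 and 1.18 in Meis1-WT cells, a log2 fold change of 0.25 (SE 0.42, limma adjusted p = 0.983). *Mki67*, the proliferation antigen Ki-67, had 4.03 and 0.37 against 3.63 and 2.07, so it was 0.40 higher on slide 1 and 1.69 lower on slide 2. *Mybl2* (B-Myb), the partner of MuvB, was lower on both slides, by 0.13 and 1.14.

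DNA replication genes, which act before mitosis in S phase, were the nearest group for comparison. All 54 genes on the array were tested, out of 61 symbols, and 0 met the criteria. Their median log2 fold change was 0.35, and 48 were higher and 6 lower, but without the second Meis1-KO array the median was 0.058. On slide 1, 47 of 54 were higher (median 0.15) and on slide 2, 44 of 54 (median 0.51), so this group had its larger median on slide 2. Its share of higher genes on slide 1 was 87.0%, against 97.7% of the mitotic genes. The standard deviation of its differences there was 0.18, against 0.25 in the mitotic genes with *Kif2c* included. These differences between groups of genes were not tested.

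**Figure D4:**
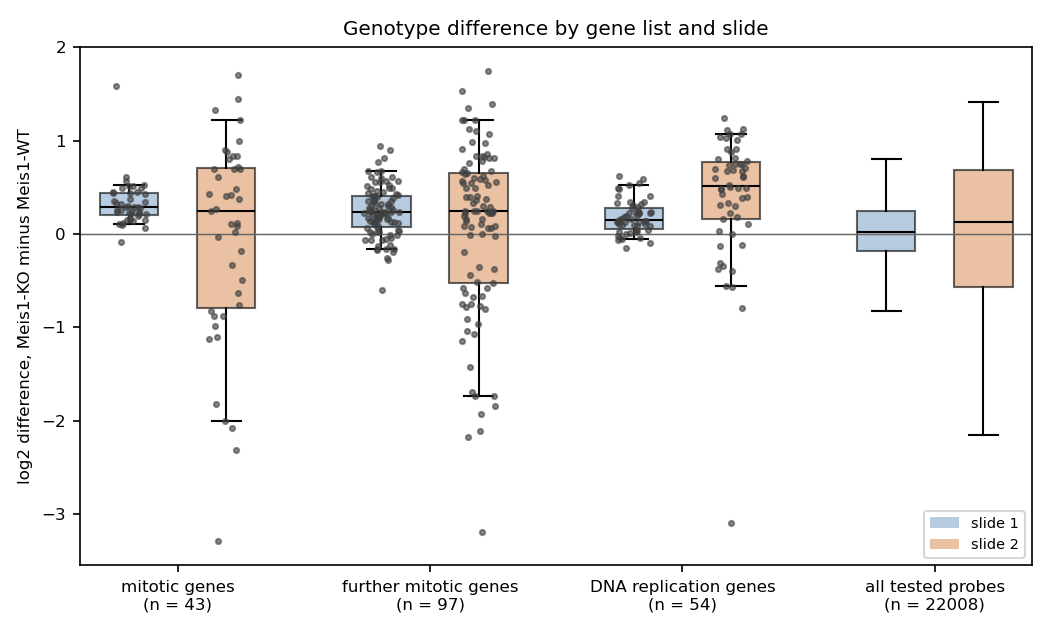
Log2 difference, Meis1-KO minus Meis1-WT, on slide 1 (blue) and slide 2 (orange) for the 43 mitotic genes, 97 further mitotic genes, 54 DNA replication genes and all 22008 tested probes. Boxes span the quartiles with the median as a line, whiskers the 5th to 95th percentiles, and dots single genes. The mitotic genes lie in a narrow box around 0.29 on slide 1 and a wide one around 0.24 on slide 2.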

How the data were processed

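LSK cells of 2 Meis1-KO and 2 Meis1-WT pools were profiled on 1-color Agilent arrays. The authors deposited the spot intensities of each array from Feature Extraction 9.5.3.1 (file headers; the submitters' processing notes name 9.1), background-subtracted and not scaled between arrays. The deposited table of the series held the same intensities, rounded. Positions are mm9, as in the files. Control spots and outlier spots were dropped, replicate spots averaged, and log2 values taken relative to the 75th percentile of each array. Testing required that both arrays of a genotype were well above background and that all 4 arrays had a value (22008 of 41174 probes). No spot was saturated. The genotype comparison used limma 3.58.1 (lmFit, eBayes; R 4.3.3), with Benjamini-Hochberg adjustment over all tested probes, and the fit was tested on simulated data. The number of arrays limits the precision.

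Each gene is given by its brightest probe over the 4 arrays. Values per array are given for the genes with the largest and smallest log2 fold change of each role, and for *Ccnb1*, *Cdc20*, *Plk1*, *Aurkb*, *Birc5*, *Top2a*, *Foxm1*, *Mki67* and *Cdk1*. *Mybl2*, named on the same terms, is given by its difference on each slide. Other named genes were chosen after their values were seen. The genes, the lists and their tests were chosen with earlier results of these data known. The files place same-numbered arrays of both genotypes on the same slide, so the number marks a shared slide. Across probes, arrays with the same number deviated together from the means of their genotypes (r = 0.266). The alternatives were other scaling, background correction, filters, tests and probe rules, the slide as a block, and each array left out.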

Additional observations from a re-analysis of the deposited data

How the results depend on the processing

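The 0 mitotic genes that met the criteria stayed at 0 under every alternative except without the first Meis1-KO array, when 7 met them (*Ccnb1* at 1.57 and *Cenpa* at 1.64 higher, *Cenpe* at -3.92, *Cenpf* at -2.01, *Kif15* at -1.98, *Kif20b* at -2.09 and *Smc4* at -2.31 lower, the value of *Cenpe* resting on a spot not well above background) among 2215 probes of the whole array. With 1 array left out, limma assumes that the lone array varies like the pair of the other genotype. Over the 4 arrays left out in turn, the count of mitotic genes meeting the criteria ranged from 0 to 7, and that of all probes from 107 to 2215. All probes meeting the criteria were 162 as reported, and 49 with normexp, 294 without a filter, 53 with a filter on all 4 arrays, 30 by the methods' t-test and 101 with an intensity trend. With the slide as a replicate block they were 437 and the mitotic genes stayed at 0, while 50 probes had an adjusted p under 0.05 instead of 0, none of them for a mitotic gene, and *Kif2c* passed an unadjusted p of 0.05.

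The median log2 fold change of the mitotic genes was 0.27 as reported, 0.36 with median scaling, 0.12 with quantile normalization, 0.087 with normexp, 0.23 without a filter, 0.18 as the mean over the probes of a gene, and 0.053 (without the first Meis1-WT array) to 0.37 (without the second) with 1 array left out. Over all tested probes, the medians under the first 3 of these settings were 0.17, 0.036 and 0.13. For the further mitotic genes the median was 0.32 with median scaling, 0.15 with quantile normalization, 0.13 with normexp, 0.21 as the mean over probes and 0.15 to 0.38 with 1 array left out, and for the DNA replication genes 0.058 to 0.63 with 1 array left out, lowest without the second and highest without the first Meis1-KO array. The number of mitotic genes higher in Meis1-KO cells ranged from 23 (without the first Meis1-WT array) to 36 (without the second Meis1-KO array). Alternatives on single slides were chosen after seeing the data. On slide 1, 42 genes stayed higher with median or quantile scaling and 37 with normexp. On slide 2, 28 were higher with median scaling, where the median of all tested probes was 0.37 instead of 0.13, and 21 with quantile normalization and 21 with normexp, with medians of -0.084 and -0.0037. The cause was not tested.

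Sign was kept by 17 of 43 genes under every alternative that gave them a value (*Kif2c* and *Cenpe* had none with the filter on all 4 arrays). It turned for *Kif11* (0.061) and *Top2a* (0.019) with median scaling, for *Cdc25c* (-0.079), *Cdca8* (-0.099) and *Prc1* (-0.064) with quantile normalization, and for *Cdc25c* (-0.12), *Cdca8* (-0.016) and *Prc1* (-0.074) with normexp. It also turned for 26 genes with 1 array left out, 21 of them without the second Meis1-KO array, with these lowest and highest log2 fold changes: *Aurkb* -0.0997 to 0.80, *Bub1b* -0.49 to 0.23, *Ccna2* -0.021 to 0.86, *Cdc20* -0.11 to 0.65, *Cdc25c* -0.012 to 0.14, *Cdca8* -0.069 to 0.43, *Cenpa* -0.28 to 1.64, *Cenpe* -3.92 to 1.14, *Cenpf* -2.01 to 0.40, *Foxm1* -0.67 to 0.086, *Incenp* -1.09 to 0.27, *Kif11* -0.38 to 0.33, *Kif15* -1.98 to 0.13, *Kif20a* -0.59 to 0.032, *Kif20b* -2.09 to 0.35, *Kif23* -0.84 to 0.12, *Kif4* -1.30 to 0.31, *Nuf2* -0.054 to 0.63, *Plk4* -0.044 to 0.42, *Prc1* -0.19 to 0.23, *Smc2* -1.18 to 0.37, *Smc4* -2.31 to 0.35, *Top2a* -0.38 to 0.25, *Tpx2* -0.20 to 0.53, *Ttk* -0.24 to 0.49 and *Ube2c* -0.34 to 0.70.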
